A study of Mus musculus with 11 samples.

Results

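The tetraspanin genes Cd9, Cd37, Cd53, Cd63, Cd81, Cd82 and Cd151 were looked up by symbol in the RNA table of regulatory T cells (Tregs), the Foxp3-defined CD4 lymphocytes that dampen immunity, and 5 of the 7 were among its 10992 genes. These were Cd9, Cd37, Cd53, Cd81 and Cd82. Cd63 and Cd151 were not analysed here. The family was chosen by the RPKM values of Cd9, which were higher in Tregs of visceral adipose tissue (VAT) with Srebf2 deleted. For all 5 genes that comparison is therefore a description with no test.

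Tregs were sorted as live cells positive for CD3, CD4 and Foxp3 from VAT or spleen of male mice aged 25 weeks. Every mouse carried Foxp3-YFPcre, a Cre recombinase driven by the Foxp3 gene and so active in Foxp3-expressing cells. The genotypes were Foxp3-YFPcre Srebf2-WT/WT (WT) and Foxp3-YFPcre Srebf2-flox/flox (KO), in which Cre can delete both copies of Srebf2, the gene of the sterol-sensing transcription factor SREBP2. There were 3 libraries of VAT WT and 3 of VAT KO. Spleen gave replicates 2 and 3 of each genotype, which makes 2 libraries a group. The targeted gene was low in every KO library, with Srebf2 at 0.263 to 1.228 RPKM in VAT KO against 15.583 to 30.532 in VAT WT, and at 2.59 and 1.593 in spleen KO against 10.506 and 23.195 in spleen WT. Whether replicates were separate mice is not stated in the labels. The p-values thus cover the spread among these libraries alone, and that spread may be technical.

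Tetraspanins are small membrane proteins that cross the membrane repeatedly and carry a large outer loop held by disulphide bonds. They bind integrins, immunoglobulin-like proteins and each other and gather them into patches of the membrane that also hold cholesterol, and the human CD81 structure has a cavity that holds cholesterol between its helices. CD9 associates with integrins and with the partner protein EWI-2. CD37 and CD53 are largely restricted to leukocytes, CD81 sits on B cells and T cells, and CD82 was described as a suppressor of metastasis.

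The 250 bases before the start of Cd9 and of Cd53 are shown because Cd9 was the member with the widest range between groups and Cd53 the most abundant one in every group. Both come from RefSeq promoter windows of GRCm38.p6 (mm10) and lie on the minus strand, at chr6:125494761-125495010 for Cd9 and chr3:106790150-106790399 for Cd53. Capitals mark the GC box GGGCGG, searched on both strands.
Cd9: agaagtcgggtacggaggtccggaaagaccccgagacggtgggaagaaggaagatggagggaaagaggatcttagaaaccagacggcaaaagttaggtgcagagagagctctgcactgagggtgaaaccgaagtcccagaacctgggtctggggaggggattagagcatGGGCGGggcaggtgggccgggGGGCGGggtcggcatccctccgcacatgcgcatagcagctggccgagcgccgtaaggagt
Cd53: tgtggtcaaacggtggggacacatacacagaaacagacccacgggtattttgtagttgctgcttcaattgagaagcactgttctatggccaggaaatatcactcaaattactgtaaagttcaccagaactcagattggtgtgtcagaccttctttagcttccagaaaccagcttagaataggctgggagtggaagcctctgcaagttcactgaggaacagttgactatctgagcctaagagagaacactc
The Cd9 window held 2 GC boxes, which began 81 and 60 bases before the start, and the Cd53 window held 0. The window of Cd81 held 3 and that of Cd37 held 1, and some windows of Cd82 held 1. A GC box was found in 32.7% of all 32851 windows of this length. The letters G and C made up 61.6% of the Cd9 window and 45.2% of the Cd53 window, against a median of 52.4% over all windows. In the windows of Cd81 and Cd37 they made up 65.6% and 58.8%. The letters TCACNCCAC, a form of the site bound by SREBP proteins, were found on neither strand in either window, nor in any window of Cd37, Cd81 or Cd82, and in 1.05% of all windows. The TATA box TATAAA, found in 12.4% of windows, was also in none of the members' windows, and the E-box CACGTG, found in 6.02%, was in that of Cd37 alone among them. Neither of these motifs overlaps the GC box. These matches describe letters only.

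Levels are RPKM, which divides reads by gene length and by the size of the library, so that genes can be compared with each other. Cd53 was the most abundant member in all 4 groups and ranked 12 to 31 among the 10992 genes by group mean. It was followed by Cd82 and Cd37. The place below them differed by tissue. In VAT the order was Cd53, Cd82, Cd37, Cd81 and Cd9, and no neighbours overlapped. In spleen Cd9 stood above Cd81 in both genotypes, and only Cd37 and Cd9 of the spleen WT libraries overlapped.

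**Figure D1:**
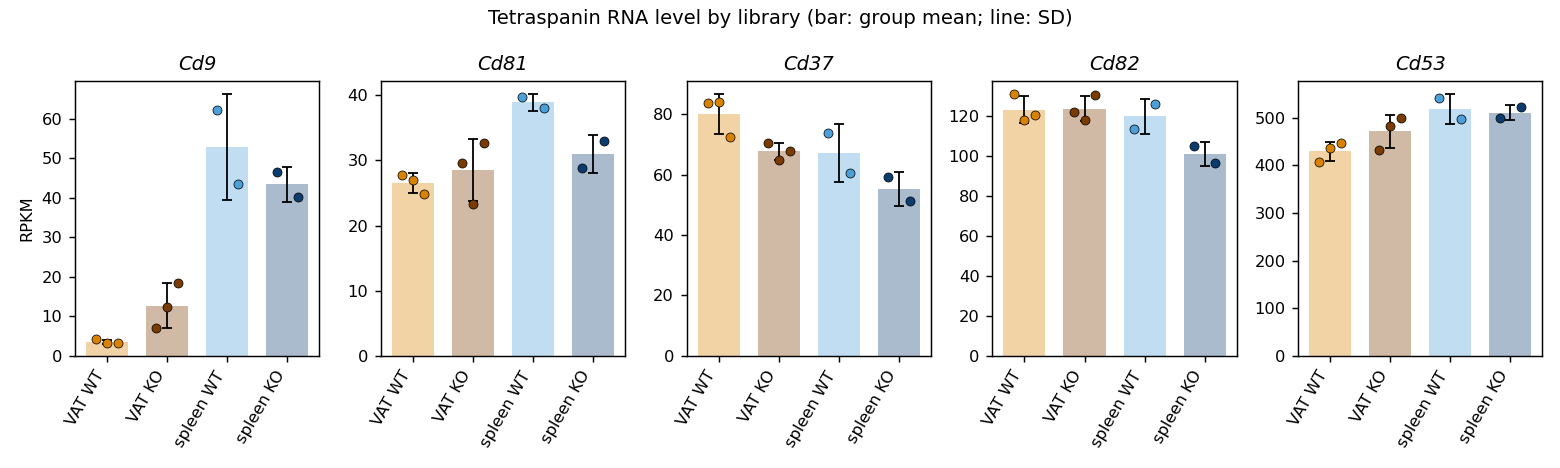
RNA level in RPKM (vertical axes, each with its own scale from 0) of the 5 tetraspanins in each library, by tissue and genotype. Points are libraries, bars are group means and lines are SDs. Cd9 goes from 3.106 to 4.185 RPKM in VAT WT to 62.257 in a spleen WT library, while the other members keep within narrow ranges.

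Cd9 (Entrez 12527; chromosome 6, 125460266 to 125494760 in GRCm38.p6) was the member that varied. The VAT WT libraries held 4.185, 3.106 and 3.207 RPKM, while the VAT KO libraries held 7.005, 12.439 and 18.43 RPKM. In spleen it stood at 62.257 and 43.352 RPKM in WT and at 46.425 and 40.211 RPKM in KO. Every VAT KO library lay above every VAT WT library, and every spleen library lay above every VAT library. Tissues did not overlap for 49.1% of all tested genes in WT and for 50.4% in KO, so that alone is common. In bulk RNA, fewer cells that express a gene and less RNA per cell cannot be told apart. The span of Cd9 overlaps 2 transcripts on the other strand, Gm28809 and Gm26728. The library kit does not mark the strand, so their reads cannot be told apart from those of Cd9.

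The mean Cd9 level was 3.50 ± 0.60 RPKM in VAT WT and 12.6 ± 5.71 RPKM in VAT KO (SD, n = 3 each), 3.61 times as high in KO. The log2 change, computed on RPKM + 1 as all changes here, was 1.52 ± 0.27 (SE). This change chose the gene. It was larger in size than that of 99.8% of the 10429 genes tested. Groups that did not overlap, with KO the higher, were seen for 8.97% of these genes, and limma called 0.422% of them in either direction at an adjusted p under 0.05, the rule for a call throughout. The 3 VAT KO libraries themselves spread widely, with an SD of 45.3% of their mean against 17.0% in VAT WT. Without VAT KO replicate 3, the highest, the log2 change was 1.21, and without replicate 1, the lowest, it was 1.85. Srebf2 was at 0.263, 0.6 and 1.228 RPKM in VAT KO replicates 1, 2 and 3. These values are near or below the 1 RPKM minimum used for testing, and a link to Cd9 over 3 libraries was not tested.

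Across tissues Cd9 was higher in spleen. Its mean was 52.8 ± 13.4 RPKM in spleen WT and 43.3 ± 4.39 RPKM in spleen KO (SD, n = 2 each). The VAT WT mean was 6.60% of the spleen WT mean, and the VAT KO mean was 23.9% of it. The log2 change from spleen to VAT was -3.57 ± 0.30 (SE) in WT and -1.79 ± 0.30 in KO. The VAT libraries of these comparisons are those that chose the gene, so no test is given for it. Among all tested genes the WT change was lower than all but 0.2% and the KO change lower than all but 0.7%. By group mean, Cd9 exceeded 31.9% of the genes of the table in VAT WT, 68.4% in VAT KO, 93.3% in spleen WT and 91.7% in spleen KO.

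The deletion in spleen compared libraries that played no part in choosing Cd9. Its SE, interval and p still draw on the VAT libraries, since limma estimated each gene's spread over all 4 groups. In spleen Cd9 stood at a log2 change of -0.26 ± 0.33 (SE, limma adjusted p = 0.804), and the 95% interval ran from -0.98 to 0.46. The 2 groups overlapped. The value rested on single spleen libraries: it was -0.005 without spleen WT replicate 2, which leaves 1 spleen WT library, and -0.52 without spleen WT replicate 3.

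**Figure D2:**
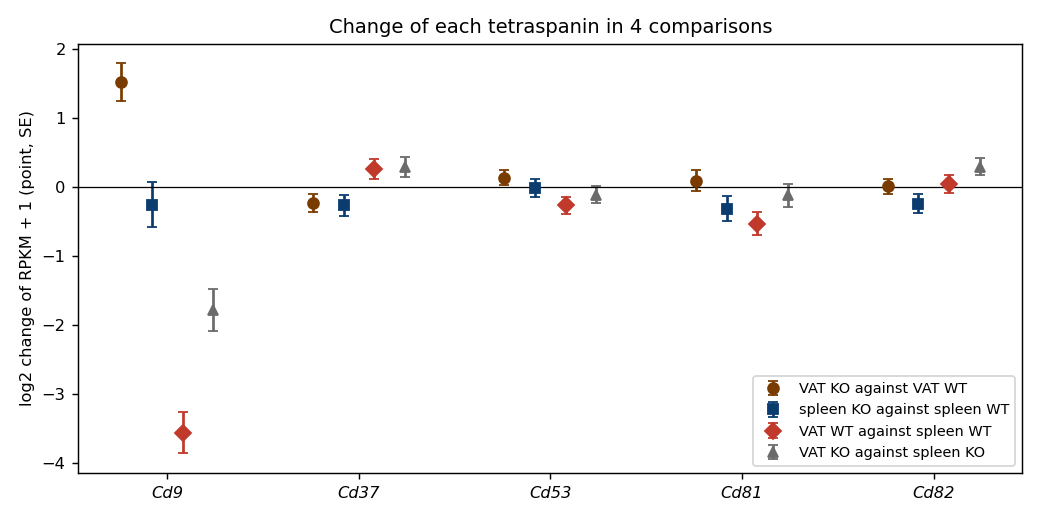
Log2 change of RPKM + 1 (vertical axis) for each of the 5 tetraspanins (horizontal axis) in 4 comparisons, as points with standard errors from limma; the group named first in the legend is compared with the one named after it. The Cd9 points lie between -3.57 and 1.52, and all points of the other 4 genes lie between -0.54 and 0.29.

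Markers of other cells were measured beside Cd9, which is also found on platelets, myeloid cells and some B cells. Of 12 myeloid genes 4 were in the table. They summed to 12.31 to 15.22 RPKM in VAT WT, 20.25 to 45.6 in VAT KO, 179.42 to 240.46 in spleen WT and 182.59 to 185.96 in spleen KO, the same order of tissues and VAT genotypes as Cd9. Nearly all of this was Ctss, the protease cathepsin S. The receptors that define macrophages were near 0: Csf1r was at 0.034 to 0.087 RPKM in VAT WT, 0.117 to 0.144 in VAT KO and 0.116 to 0.828 in spleen, higher in every VAT KO than in every VAT WT library, as Cd9 was. Adgre1 was at 0.03 to 0.366 RPKM in VAT and at most 1.445 in spleen. The remaining myeloid gene, Fcer1g, an adaptor chain of Fc receptors, was at 0.417 to 1.014 RPKM in VAT WT and 0.854 to 2.855 in spleen. In VAT KO it was at 0.254 and 0.16 RPKM in replicates 1 and 2 and at 3.953 in replicate 3, the VAT library with the most Cd9. Of 9 platelet genes only the integrin chain Itgb3 was in the table. It was higher in VAT, at 14.16 to 38.95 RPKM, than in spleen, at 5.54 to 12.26 RPKM, opposite to Cd9. Of 10 B cell genes 6 were in the table, and their sum lay at 17.58 to 84.1 RPKM in the VAT libraries and 27.86 to 45.16 RPKM in the spleen libraries. Of 8 genes for stroma and endothelium the table held Pecam1 alone, an adhesion protein of endothelium and leukocytes, at 4.394 to 7.37 RPKM in VAT WT, 8.796 to 11.794 in VAT KO and 15.904 to 34.89 in spleen, so it moved in the order of Cd9. Of 6 adipocyte genes only Lipe was in the table, between 1.633 and 3.397 RPKM in the 10 libraries, and of 6 genes of CD8 T cells and NK cells Cd8a and Cd8b1 were, with sums between 4.93 and 20.03 RPKM. The part of such cells in the Cd9 levels was not tested. The 8 Treg and T cell markers were all in the table, and they did not move together. Foxp3 lay between 13.274 and 16.398 RPKM in the VAT libraries, above its spleen range of 6.97 to 8.866. Ctla4 and Il2ra were likewise higher in every VAT library than in every spleen library. Cd3d, Cd3e and Cd3g went the other way, with Cd3d at most 162.407 RPKM in VAT but at least 211.309 in spleen. Cd4 and Ikzf2 overlapped between the tissues.

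The genes whose pattern was most like that of Cd9 were looked for by Pearson r of log2(RPKM + 1) over the 10 libraries, among 6627 other tested genes whose mean reached 5 RPKM. The closest was Slamf6, a receptor of the SLAM family on lymphocytes, at r = 0.992. Its mean was 5.38 RPKM in VAT WT, 14.4 in VAT KO, 42.6 in spleen WT and 42.7 in spleen KO. Gata1 followed at 0.990. This transcription factor, best known from red cell and platelet precursors, was at 0.457 RPKM in VAT WT, 3.07 in VAT KO, 17.4 in spleen WT and 18.3 in spleen KO. Cd96, an inhibitory receptor of T and NK cells, Ctss and Ms4a4b, a T cell membrane protein, each had r = 0.987. The libraries of the 2 tissues lie far apart, which alone gives a high r. Within the 6 VAT libraries r was 0.971 for Slamf6, 0.972 for Gata1, 0.954 for Cd96, 0.959 for Ctss and 0.944 for Ms4a4b, and these libraries in turn fall into 2 genotypes. Within the 4 spleen libraries r ranged from 0.494 for Cd96 to 0.988 for Ms4a4b.

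**Figure D3:**
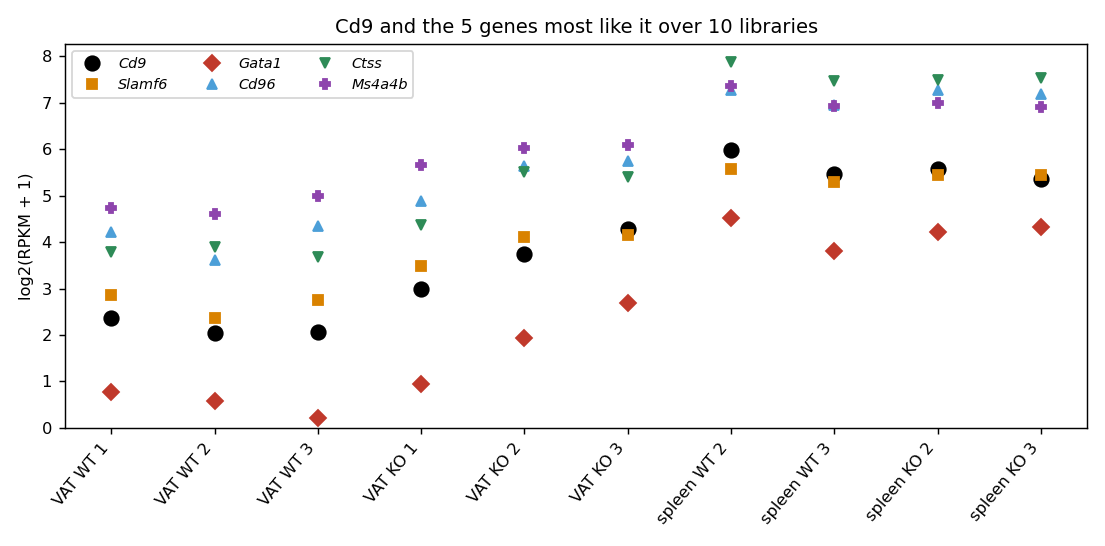
Level as log2(RPKM + 1) (vertical axis) of Cd9 and the 5 genes most like it in each of the 10 libraries (horizontal axis). All 6 genes are lowest in VAT WT, higher in VAT KO and highest in spleen.

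Cd81 (Entrez 12520; chromosome 7, 143052750 to 143067930) was lower in VAT WT than in spleen WT. It stood at 27.806, 26.965 and 24.839 RPKM in VAT WT and at 39.82 and 38.021 RPKM in spleen WT, so that the groups did not overlap. The log2 change from spleen WT to VAT WT was -0.54 ± 0.16 (SE, limma adjusted p = 0.0305), with a 95% interval of -0.89 to -0.18. It was the only 1 of the 4 members tested that limma called in this comparison, in which it called 26.1% of all genes, so a call is common here. Over all tested genes the median change was -0.12, and relative to it Cd81 stood at -0.42. The call was lost when the libraries were rescaled by median ratios (-0.38, adjusted p = 0.114), by quantile normalization (-0.41, 0.0767), with the replicate number as a block (-0.57, 0.0536), in a fit of these 2 groups alone (-0.54, 0.0656), without any single VAT WT library (0.0554 to 0.0932) and without spleen WT replicate 2 (-0.50, 0.0953). In KO Cd81 stood at 29.638, 23.272 and 32.634 RPKM in VAT and 28.916 and 33.017 RPKM in spleen, and the groups overlapped (log2 change -0.13 ± 0.16, adjusted p = 0.678). Limma called 14.6% of genes there and none of these 4 members. Between genotypes Cd81 stood at 0.09 ± 0.15 in VAT and at -0.32 ± 0.18 in spleen (adjusted p = 0.638). The span of Cd81 overlaps a transcript on the other strand, R74862, and the library kit does not mark the strand, so their reads cannot be told apart.

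Cd53 (Entrez 12508; chromosome 3, 106758861 to 106790149) made up 62.3% to 70.2% of the summed RPKM of the 5 members in every library. It stood at 407.528, 435.727 and 445.781 RPKM in VAT WT, at 431.714, 482.021 and 499.041 in VAT KO, at 540.262 and 496.228 in spleen WT and at 499.122 and 521.496 in spleen KO. Each spleen group lay above the VAT group of its genotype, by a small margin in KO. Tissues did not overlap, in either direction, for 49.1% of all tested genes in WT and 50.4% in KO. The log2 change from spleen to VAT was -0.27 ± 0.12 (SE) in WT (limma adjusted p = 0.118) and -0.12 ± 0.12 in KO (0.578). Under quantile normalization (-0.56, adjusted p = 0.0106) and without spleen WT replicate 3 (-0.33, 0.0412) the WT change passed, while under scaling by median ratios it was -0.11 (0.555). Between genotypes Cd53 stood at 0.13 ± 0.11 in VAT and -0.02 ± 0.13 in spleen (adjusted p = 0.962), with a 95% interval in spleen of -0.31 to 0.27.

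Cd82 (Entrez 12521; chromosome 2, 93419102 to 93462950) was the member whose mean differed least between genotypes in VAT. It stood at 130.958, 118.077 and 120.553 RPKM in VAT WT and at 122.09, 118.241 and 130.461 in VAT KO, a log2 change of 0.005 ± 0.11 (SE). In spleen it stood at 113.672 and 126.137 RPKM in WT and at 105.207 and 96.684 in KO, and the KO libraries lay below both WT libraries. Lower KO groups without overlap were seen in 17.5% of genes there. The spleen change was -0.25 ± 0.14 (limma adjusted p = 0.638), with a 95% interval of -0.54 to 0.05. Against spleen, the VAT change was 0.04 ± 0.12 in WT (adjusted p = 0.846) and 0.29 ± 0.12 in KO (0.150), where VAT KO lay above spleen KO with no overlap. In KO, tissues did not overlap, in either direction, for 50.4% of all tested genes. The span of Cd82 overlaps that of Gm10804 on the other strand.

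Cd37 (Entrez 12493, chromosome 7, 45233632 to 45239340) had its highest group mean in VAT WT. It stood at 83.637, 84.033 and 72.35 RPKM in VAT WT and at 70.525, 64.849 and 67.858 in VAT KO. The KO libraries all lay below the WT libraries, as in 6.16% of all tested genes, with a log2 change of -0.23 ± 0.13 (SE). In spleen Cd37 stood at 73.868 and 60.456 RPKM in WT and at 59.347 and 51.314 in KO. KO was again lower without overlap, as in 17.5% of genes there, but the change of -0.27 ± 0.16 did not pass (limma adjusted p = 0.650, 95% interval -0.61 to 0.07). From spleen to VAT it was 0.25 ± 0.14 in WT (adjusted p = 0.213) and 0.29 ± 0.14 in KO (0.210). In WT the tissues overlapped, with spleen replicate 2 (73.868 RPKM) above VAT replicate 3 (72.35 RPKM). CD37 is abundant on B cells, and the 6 B cell genes summed to 35.27, 84.1 and 18.52 RPKM in VAT WT replicates 1 to 3 and to 20.15, 17.58 and 36.54 in VAT KO. Without VAT WT replicate 2, the library with the highest sum, the VAT change of Cd37 was -0.20. VAT WT replicates 1 and 2 had unlike B cell sums but near-equal Cd37, so leaving out replicate 2 cannot show the part of B cells. That part was not tested. The span of Cd37 overlaps that of Tead2 on the other strand.

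In spleen, limma called 0 of the 5 members and 0% of all 10429 genes between genotypes. Srebf2, the targeted gene, was itself not called there, at a log2 change of -2.45 ± 0.40 (SE, limma adjusted p = 0.244). Without adjustment 873 genes had p under 0.05, and none of the 5 members, whose smallest unadjusted p was 0.0966, for Cd81. All 5 members lay below 0, with Cd53 nearest to it, and 3 of them had KO libraries wholly below the WT libraries. Groups without overlap were seen in 17.5% of all genes with KO the lower, and in 32.6% in either direction. The median change over all genes was -0.03. The direction of Cd53 turned to 0.07 under quantile normalization and to 0.007 under scaling by median ratios, and to 0.04 without spleen WT replicate 2. The count of all called genes rose to 1395 without spleen WT replicate 3, which leaves 1 spleen WT library, and none of the 5 members passed there. Spleen WT was the group whose libraries were least alike, with r = 0.932 across genes, while replicates of the other groups had 0.968 to 0.974.

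Of 24 other tetraspanin genes 10 were in the table and tested. Between tissues in WT, 2 were higher in VAT and 2 lower, and the median of the 10 was -0.05 against -0.12 over all genes. Limma called 10.7% of all genes as higher in VAT and 15.4% as lower, which were 1116 and 1607 genes, and 1388 and 1031 under scaling by median ratios. Tspan3, a broadly expressed tetraspanin, had the largest fall of the 10. It stood at 5.454, 7.105 and 4.059 RPKM in VAT WT and at 29.532 and 20.82 in spleen WT (log2 change -2.01 ± 0.25, SE; adjusted p = 8.45e-05). All VAT WT libraries lay far below both spleen libraries, as they did for Cd9.

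Tspan17, one of the tetraspanins that guide the protease ADAM10, went the other way. It stood at 18.783, 19.937 and 12.462 RPKM in VAT WT and at 7.132 and 2.301 in spleen WT (1.78 ± 0.34, limma adjusted p = 0.00241). Tspan13 was the most abundant of the 10, and its VAT WT mean of 241 ± 8.69 RPKM (SD, n = 3) exceeded the spleen WT mean of 151 ± 22.0 (n = 2; log2 change 0.68 ± 0.13, adjusted p = 0.00212). Tspan32, a leukocyte tetraspanin and the last of the 4 called, stood at 64.0 against 91.9 RPKM (-0.52 ± 0.15, adjusted p = 0.0253). It lies outside the 3 genes named by rule. Its call was lost under scaling by median ratios (adjusted p = 0.103), in a fit of the 2 groups alone (0.0847) and without VAT WT replicate 2 or 3 or spleen WT replicate 2 (0.0552, 0.0912 and 0.124).

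In KO, 3 of the 10 were called between tissues (1 to 6 with 1 library left out), where limma called 14.6% of all genes, with a median of -0.03 against -0.09 over all genes. Tspan17 had a mean of 10.5 RPKM in VAT KO against 1.496 in spleen KO (2.22 ± 0.34, limma adjusted p = 0.000767), and Tspan13 at 224 and 157 RPKM (0.51 ± 0.13, 0.0189). Tspan3 stood at 9.69 and 20.3 RPKM (-1.02 ± 0.25, 0.0150). The calls of Tspan3 and Tspan13 were lost without VAT KO replicate 1 (adjusted p = 0.0631 and 0.0786) and without either spleen KO library, each of which leaves 1 such library (0.113 and 0.0848 for Tspan3, 0.0940 and 0.139 for Tspan13). That of Tspan13 was also lost without VAT KO replicate 3 (0.0528), with the replicate block (0.0729) and with quantile normalization (0.0913).

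**Figure D4:**
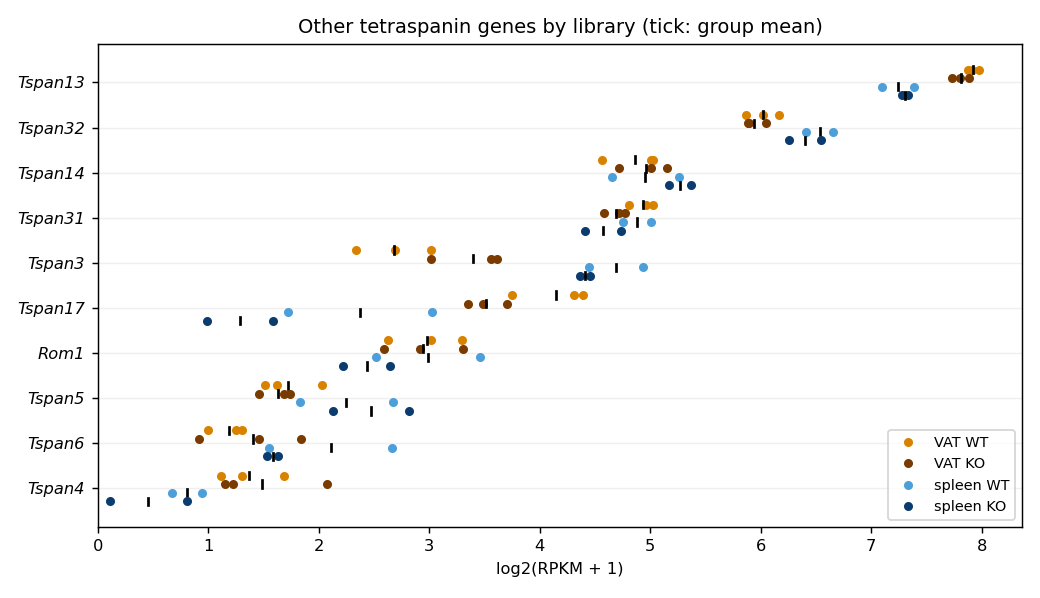
Level as log2(RPKM + 1) (horizontal axis) of the 10 other tetraspanin genes of the table (vertical axis), with a point for each library, coloured by tissue and genotype, and a tick at each group mean. Tspan3 lies lower in VAT, and Tspan17 and Tspan13 lie higher in VAT.

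Between genotypes none of the 10 other tetraspanins was called in VAT, where the median was -0.06 against 0.02 over all genes, nor in spleen, where it was -0.295 against -0.03. At an unadjusted p under 0.05, Tspan3 in VAT and Tspan17 in spleen were each alone, against 7.35% and 8.37% of all genes. Tspan3 stood at 7.09, 11.21 and 10.781 RPKM in VAT KO, so its lowest KO library lay just under its highest WT library (0.71 ± 0.22, limma adjusted p = 0.362). Tspan17 stood at 11.994, 9.215 and 10.178 RPKM in VAT KO (-0.64 ± 0.31, adjusted p = 0.713). It lay below every VAT WT library there, as did 6.16% of all tested genes. In spleen KO it stood at 0.983 and 2.009 RPKM (-1.09 ± 0.37, adjusted p = 0.582). The spleen change of Tspan17 rested on single spleen WT libraries: without replicate 3 it passed, at -1.74 (adjusted p = 0.0104), and without replicate 2 it was -0.43 and did not.

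Of 23 surface partners of tetraspanins, 19 were tested. Between tissues in WT, 2 were higher in VAT and 2 lower, where 10.7% of all genes were called higher and 15.4% lower, so this count is not a result about the partners. Their median was -0.03 against -0.12 over all genes. Cd44, the hyaluronan receptor that marks activated T cells, stood at 42.6 RPKM in VAT WT and 10.5 in spleen WT (1.90 ± 0.20, limma adjusted p = 2.52e-05). Itga6, the integrin chain of laminin receptors and a classic partner of CD9 and CD151, stood at 8.40 and 17.0 RPKM (-0.95 ± 0.22, adjusted p = 0.00791). Itgb7, a chain of gut-homing integrins, stood at 483 and 370 RPKM (0.39 ± 0.12, adjusted p = 0.0399). Its call was lost under quantile normalization (0.06, adjusted p = 0.729), with no filter (0.0527), in a fit of the 2 groups alone (0.162), with the replicate block (0.120), and in 9 of the 10 fits that left out 1 library (0.0512 to 0.119). Itga5, named after its value was seen, stood at 0.710 and 2.29 RPKM (-0.98 ± 0.33, adjusted p = 0.0450), and its call was lost under 12 alternatives.

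In KO, 3 of the 19 partners were called between tissues, where limma called 14.6% of all genes, with a median of 0.03 against -0.09 over all genes. Epcam, an adhesion protein that associates with CD9, had a mean of 20.02 RPKM in VAT KO against 5.59 in spleen KO (1.67 ± 0.23, limma adjusted p = 0.000325). In WT it was also higher in VAT, at 15.2 against 9.75 RPKM, but was not called (0.55 ± 0.23, adjusted p = 0.0966). In KO, Cd44 stood at 28.9 and 10.2 RPKM (1.43 ± 0.20, adjusted p = 0.000406) and Itga6 at 10.8 and 24.2 RPKM (-1.10 ± 0.22, adjusted p = 0.00518). The call of Itga6 was lost without spleen KO replicate 2 (adjusted p = 0.0649).

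Between genotypes none of the 19 partners was called in either tissue, with medians of 0.015 in VAT and -0.02 in spleen, against 0.02 and -0.03 over all genes. Without adjustment 5 of the 19 had p under 0.05 in VAT and 1 in spleen, against the same 7.35% and 8.37% of all genes. The 1 in spleen was Epcam, at 5.59 RPKM in KO and 9.75 in WT (-0.70 ± 0.25, limma adjusted p = 0.591). In VAT the smallest p belonged to Itgb1, the shared beta chain of many integrins. It stood at 87.744, 56.232 and 126.934 RPKM in WT and at 137.61, 154.726 and 142.613 in KO. With no overlap, as in 8.97% of all tested genes with KO the higher, the change was 0.75 ± 0.22 (limma adjusted p = 0.315). The value rested on single VAT WT libraries: it passed without replicate 3 (1.03, adjusted p = 0.0434) and shrank to 0.45, not past the threshold, without replicate 2. Cd44 stood at 42.6 RPKM in VAT WT and 28.9 in VAT KO (-0.52 ± 0.18, adjusted p = 0.443).

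Of 15 genes that sort CD63, build lysosomes or release vesicles, 13 were tested and limma called 0 in any of the 4 comparisons. Of all genes it called 0.422% for the deletion in VAT, 0% in spleen, 26.1% between tissues in WT and 14.6% in KO. Without spleen WT replicate 2 or 3, each of which leaves 1 spleen WT library, the 0 no longer held between tissues in WT or in KO. Without replicate 3 it also failed for the deletion in spleen. For the deletion in VAT it held in these fits. The medians of the 13 were 0.06 for the deletion in VAT, -0.06 for the deletion in spleen, -0.02 between tissues in WT and 0.12 between tissues in KO. Sdcbp, syntenin, which links CD63 to vesicle formation, stood at 32.8 RPKM in VAT WT and 37.8 in VAT KO (0.20 ± 0.13, limma adjusted p = 0.895). Ap3s1, a chain of the AP-3 adaptor that sorts CD63 to lysosomes, stood at 13.3 RPKM in VAT WT and 9.61 in spleen WT (0.47 ± 0.21, adjusted p = 0.113), and the value rested on the 2 spleen WT libraries. It passed without replicate 2 (0.80, adjusted p = 0.0135) and was 0.13 without replicate 3 (0.622). Without adjustment, 0 of the 13 had p under 0.05 in VAT and 1 in spleen between genotypes, and 2 of the 13 in each comparison of tissues, where 39.5% (WT) and 28.2% (KO) of all genes had such a p.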

How the data were processed

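The authors deposited one table of RPKM values, per the file headers. Per the labels, RNA from sorted cells went through SMART-seq v4 cDNA synthesis and Nextera XT, which does not mark the strand. STAR and mm10 are named in the submitters' processing notes. The read counter and the rule that left 10992 genes were not given in the sources used here. Read depth is unknown, so no counting error is given. Library sums ran from 185319 to 210779 RPKM. One column of per-sample values matched no label and was not used, and spleen KO replicate 1 had no matching column, so 10 of 11 samples were used.

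Values were tested as log2(RPKM + 1) with limma 3.58.1 in R 4.3.3 (4 group means, trend on), over 10429 genes with at least 1 RPKM in at least 2 libraries, with two-sided Benjamini-Hochberg adjustment over all of them. The fit was tested on simulated data. Replicate numbers were not used to pair the libraries, and whether same-numbered libraries came from the same mouse is unknown. Members, lists and tests were chosen with earlier results of these data known. Named were all members present, up to 3 genes by p of each list, and the 5 genes most like Cd9.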

Additional observations from a re-analysis of the deposited data

How the results depend on the processing

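The 5 members' changes in 4 comparisons were recomputed under 19 alternatives, of which 360 of 380 values kept direction and side of the threshold or moved by less than the replicate SD. With a pseudocount of 5 the Cd9 change was 1.00 in VAT and -2.75 from spleen WT to VAT WT. Genes called in VAT fell to 20 with a pseudocount of 5, those in spleen were 2 with a pseudocount of 0.1, and those between tissues in WT were 1757 in a fit of the 2 groups alone. Leaving out 1 library in turn gave 2 to 59 calls for the deletion in VAT (44 with all libraries), 0 to 1395 in spleen (0), 1718 to 3892 between tissues in WT (2723) and 747 to 2209 in KO (1522). Small changes turned sign. Cd53 in spleen did so under quantile normalization (0.07) and median ratios (0.007), and ran from -0.082 to 0.04 over the left-out libraries. Over these, Cd82 between tissues in WT ran from -0.035 to 0.114 and Cd81 between tissues in KO from -0.226 to 0.009. For the deletion in VAT, Cd81 ran from -0.013 to 0.223 and Cd82 from -0.034 to 0.049. In spleen, leaving out 1 library gave -0.645 to 0.02 for Cd2 and -0.007 to 1.452 for Ap3d1. The causes were not tested.

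Deviations of same-numbered libraries from their group means had correlations of -0.147 to 0.184. With groups of 2 or 3 libraries this cannot decide whether they came from the same mouse. With the replicate block the calls were 39 in VAT, 0 in spleen, 2066 between tissues in WT and 1096 in KO. RPKM without counts leaves depth unknown, and spleen groups of 2 limit what could be called there.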
